A study of Mus musculus with 28 samples.

Results

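The 34 genes described here encode the glucose transporters, the enzymes of glycolysis and their regulators, lactate dehydrogenase, pyruvate dehydrogenase and its kinases, the lactate transporters and glycogen synthase, and they were chosen by name from the 54429 genes of the count table. All 34 had a row, and 28192 rows of the table held a count in any library. RNA was sequenced from O9-1 cells, a mouse cranial neural crest line that can be kept as a multipotent culture or driven into skeletal and smooth muscle fates. Each of 4 culture states was grown at 21% O2 (called normoxic, 4 libraries) or at 0.5% O2 (hypoxic, 3 libraries), 28 libraries in 8 groups. Proliferating cells were kept in DMEM conditioned by STO feeder cells with 15% fetal calf serum, 25 ng/ml bFGF and 5 ng/ml LIF. The osteoblast cultures spent 10 days in alpha-MEM with 10% serum, 10 mM beta-glycerophosphate, 0.1 µM dexamethasone and 100 ng/ml BMP-2. For the chondrocyte cultures, 3 days of that osteogenic medium were followed by 7 days as micromass on matrigel, with 5% serum, insulin-transferrin-selenium, 0.1 µM dexamethasone, 10 ng/ml TGF-beta3 and 50 ng/ml BMP-2. Smooth muscle cultures were held for 3 days in DMEM with 10% serum. All groups come from this single line, and no genetic change between them is named. The 2 groups of a culture state differ by label in oxygen alone, and the culture states differ in medium, dexamethasone included. How long the proliferating cultures were held at low oxygen is not given in the sources used here. Nothing states that replicates were separate cultures, so the p-values measure only the spread between these libraries, which may be technical.

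Glycolysis splits glucose into pyruvate in the cytosol and yields a little ATP without oxygen. Pyruvate then either enters mitochondria, where the pyruvate dehydrogenase complex turns it into acetyl-CoA for the tricarboxylic acid (TCA) cycle, or is reduced to lactate, which restores the NAD that glycolysis consumes. When oxygen is low, the transcription factor HIF-1 is stabilized and binds short elements with an RCGTG core near many of these genes, and the pyruvate dehydrogenase kinases it induces inhibit the conversion of pyruvate to acetyl-CoA. Neural crest cells are known to rely on glycolysis, and growing cartilage is a tissue that normally matures with little oxygen.

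Depth ran from 19.87 M to 64.69 M counts per library. The 3 hypoxic smooth muscle libraries stood apart from the other 25: mitochondrial ribosomal RNA took 11.6% to 13.3% of their counts, against 0.0889% at most elsewhere, and their 10 most counted genes took 27.1% to 28.5%, against 5.05% to 16.5%. Their smooth muscle markers did not match the label. The summed level of 7 such markers, all with a count, was 95.0 to 119 CPM (counts relative to the scaled library size) there and 3579 to 4042 CPM in the normoxic smooth muscle cultures, while proliferating normoxic cells held 94.3 to 102.9 CPM. Acta2, smooth muscle actin, averaged 20.9 CPM in hypoxic and 3254 CPM in normoxic smooth muscle cultures. A list of 4 blood markers, 3 of them with a count, summed to 33.6 to 37.4 CPM in the hypoxic smooth muscle libraries and to at most 5.85 CPM in any other group; Hbb-bs was at 0, Ptprc averaged 0.0926 CPM, and Cd68 made up 35.0 CPM of the sum. Sums that fell without overlap from normoxic to hypoxic smooth muscle cultures also included the chondrocyte (1038 to 1217 and 32.6 to 41.8 CPM), osteoblast (4416 to 6604 and 1051 to 1245 CPM), neural crest (3114 to 3265 and 1113 to 1165 CPM) and skeletal muscle markers (10.3 to 12.4 and 1.20 to 3.07 CPM), and the neuron and glia sum was higher (6.06 to 7.42 and 9.63 to 16.3 CPM). In the neural crest list Twist1 (88.1 and 433 CPM) and Nes (8.17 and 29.2 CPM) rose. The others in it fell, such as Prrx1 (2188 and 385 CPM) and Pdgfra (633 and 148 CPM). In the osteoblast list Spp1 (652 and 764 CPM) and Runx2 (69.4 and 72.1 CPM) were higher and the others lower, Col1a1 among them (4562 and 311 CPM). Every smooth muscle oxygen comparison below carries these differences, and their part in the results was not tested. The 9 chondrocyte markers summed to 7153 to 14367 CPM in normoxic and 5452 to 5736 CPM in hypoxic chondrocyte cultures. Among them Col2a1 averaged 3512 CPM at 21% and 274 CPM at 0.5% O2, Col9a1 35.6 and 0.143 CPM, Comp 51.8 and 3.67 CPM, Sox6 1.88 and 0.151 CPM, and Matn1 was near 0 at 21% and at 0 at 0.5% O2. The other chondrocyte markers were Sox9 (159 and 161 CPM), Col11a1 (5408 and 4549 CPM), Acan (1964 and 622 CPM) and Sox5 (21.0 and 12.7 CPM). Col11a1 was most of the hypoxic sum. The 8 osteoblast markers summed to 38601 to 51731 CPM in chondrocyte and 6711 to 15610 CPM in osteoblast cultures. Most of the sum was Col1a1 (38652 and 45682 CPM in normoxic and hypoxic chondrocyte, 6565 and 9758 CPM in osteoblast cultures). At 21% O2 each of the 8 averaged higher in chondrocyte than in osteoblast cultures, such as Ibsp (1173 and 1.13 CPM), Alpl (264.9 and 11.4 CPM) and Sp7 (169.6 and 12.1 CPM). Ibsp (649 and 69.6 CPM), Alpl (89.5 and 74.6 CPM) and Sp7 (235 and 96.7 CPM) also did so at 0.5% O2. There the order was the other way for Spp1 (1167 CPM in chondrocyte and 4694 CPM in osteoblast cultures), Runx2 (82.8 and 140.2 CPM), Dmp1 (9.08 and 9.78 CPM) and Bglap (0.0110 and 0.371 CPM). Between normoxic and hypoxic chondrocyte cultures the sums of adipocyte (12.4 to 18.1 and 9.49 to 10.9 CPM), endothelial (1.64 to 3.06 and 5.28 to 7.62 CPM) and epithelial markers (0.283 to 0.586 and 0 to 0.197 CPM) did not overlap either. The part of these marker differences in the chondrocyte results was not tested. The 10 neural crest markers summed to 1316 to 1351 CPM in normoxic and 1791 to 1874 CPM in hypoxic proliferating cells. Prrx1 averaged 849 and 1069 CPM there, Pdgfra 145 and 341 CPM and Twist1 92.4 and 72.5 CPM, and Sox10 was at 0 in both. In bulk RNA, fewer cells of a type and less RNA per cell cannot be told apart.

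More of these genes rose than fell with low oxygen in every culture state, and the median rise was smallest in the chondrocyte cultures. Calls are from edgeR's quasi-likelihood test with Benjamini-Hochberg adjustment over all genes tested, at an adjusted p below 0.05, and changes are log2 of hypoxic over normoxic. In proliferating cells 24 of the 33 members tested rose and 4 fell, where 33.1% of all 14156 genes tested rose and 32.3% fell; the members' median change was 1.38, against 0.015 over all genes. The 7 smooth muscle markers summed to 94.3 to 102.9 CPM in normoxic and 191 to 195 CPM in hypoxic proliferating cells. Smtn averaged 48.9 and 153 CPM, Acta2 41.8 and 29.4 CPM, and Des was at 0 in the hypoxic ones. The 5 neuron and glia markers summed to 3.50 to 8.62 and 14.8 to 17.6 CPM, with Rbfox3 at 0 in both. The neural crest sums given above, the chondrocyte (108 to 154 and 212 to 226 CPM) and osteoblast sums (3439 to 4060 and 4310 to 4349 CPM), and the blood and skeletal muscle sums (at most 5.85 CPM) were also higher at 0.5% O2 without overlap. In the osteoblast list only Col1a1 rose (1458 and 2461 CPM). Spp1 (2100 and 1817 CPM), Runx2 (63.9 and 46.2 CPM), Dmp1 (3.18 and 0.862 CPM), Sp7, Alpl and Bglap were lower, and Ibsp was at 0 in both. In the chondrocyte list Sox9 (94.7 and 149.7 CPM), Acan (21.7 and 62.5 CPM) and Sox5 rose, and Col11a1 (3.26 and 2.76 CPM), Comp and Sox6 fell. The part of these lists in the result was not tested. Chondrocyte cultures had 17 members higher and 1 lower of 33, beside 10.4% and 11.8% of 14205 genes, with a median of 0.89 against -0.0058; between 16 and 20 members and 2091 and 3359 of all genes (3157 with all libraries) were called when 1 library was left out, the fewest genes without hypoxic replicate 3. In osteoblast cultures 26 of 34 members rose and 2 fell, beside 27.0% and 27.3% of 14533 genes, and the median was 2.00 against -0.032. Markers of other cell types moved there too: 6 adipocyte markers summed to 9.07 to 17.0 CPM in normoxic and 55.7 to 60.2 CPM in hypoxic osteoblast cultures. Pparg was at 5.40 and 36.1 CPM, Fabp4 at 3.74 and 21.0 CPM, Cebpa at 2.29 and 0.671 CPM, Plin1 at 0 and 0.0458 CPM and Adipoq and Lep at 0 in both. The 7 smooth muscle markers summed to 3647 to 5175 CPM in the normoxic and 2213 to 2493 CPM in the hypoxic ones. That normoxic range overlapped the 3579 to 4042 CPM of the normoxic smooth muscle cultures, so this sum did not separate those cultures at 21% O2. The chondrocyte (1820 to 2914 and 1526 to 1581 CPM), neural crest (3177 to 4349 and 2430 to 2585 CPM) and skeletal muscle sums (3.86 to 6.85 and 2.92 to 3.38 CPM) were lower and the osteoblast sum (6711 to 10511 and 13679 to 15610 CPM) higher without overlap. In the chondrocyte list Sox9 (87.8 and 196 CPM), Sox5 (14.1 and 54.1 CPM) and Acan (163 and 345 CPM) rose. The others in it fell, such as Col11a1 (1589 and 887 CPM) and Col2a1 (223 and 71.0 CPM). In the neural crest list Twist1 (96.5 and 139 CPM), Snai2 (37.2 and 79.1 CPM), Sox9, Snai1 and Nes rose. Prrx1 (2509 and 1617 CPM), Pdgfra (1094 and 289 CPM) and Tfap2a fell. The part of these lists in the osteoblast results was not tested. Smooth muscle cultures gave 23 higher and 8 lower of 33, beside 35.4% and 40.2% of 14914 genes, with a median of 2.02 against -0.12. The hypoxic and normoxic libraries did not overlap for 25 tested members that were higher and 4 that were lower in proliferating cells (30.3% and 34.7% of all genes tested). The counts were 23 and 3 in chondrocyte (16.1% and 15.7%), 27 and 3 in osteoblast (29.4% and 28.7%) and 23 and 8 in smooth muscle cultures (33.2% and 41.9%). Scaled by library size alone, without the trimmed-mean factors, the smooth muscle comparison became 17 members higher and 13 lower within 2002 genes higher and 10831 lower (5277 and 5994 with the factors), and the median of all genes moved from -0.12 to -1.49; smooth muscle changes below are relative to the bulk of the genes. The same scaling gave 1091 genes higher and 2336 lower in chondrocyte cultures (1482 and 1675 with the factors), with the members at 17 and 1 either way, and 3036 and 5200 genes in osteoblast cultures (3917 and 3973), with the members at 25 and 3.

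**Figure D1:**
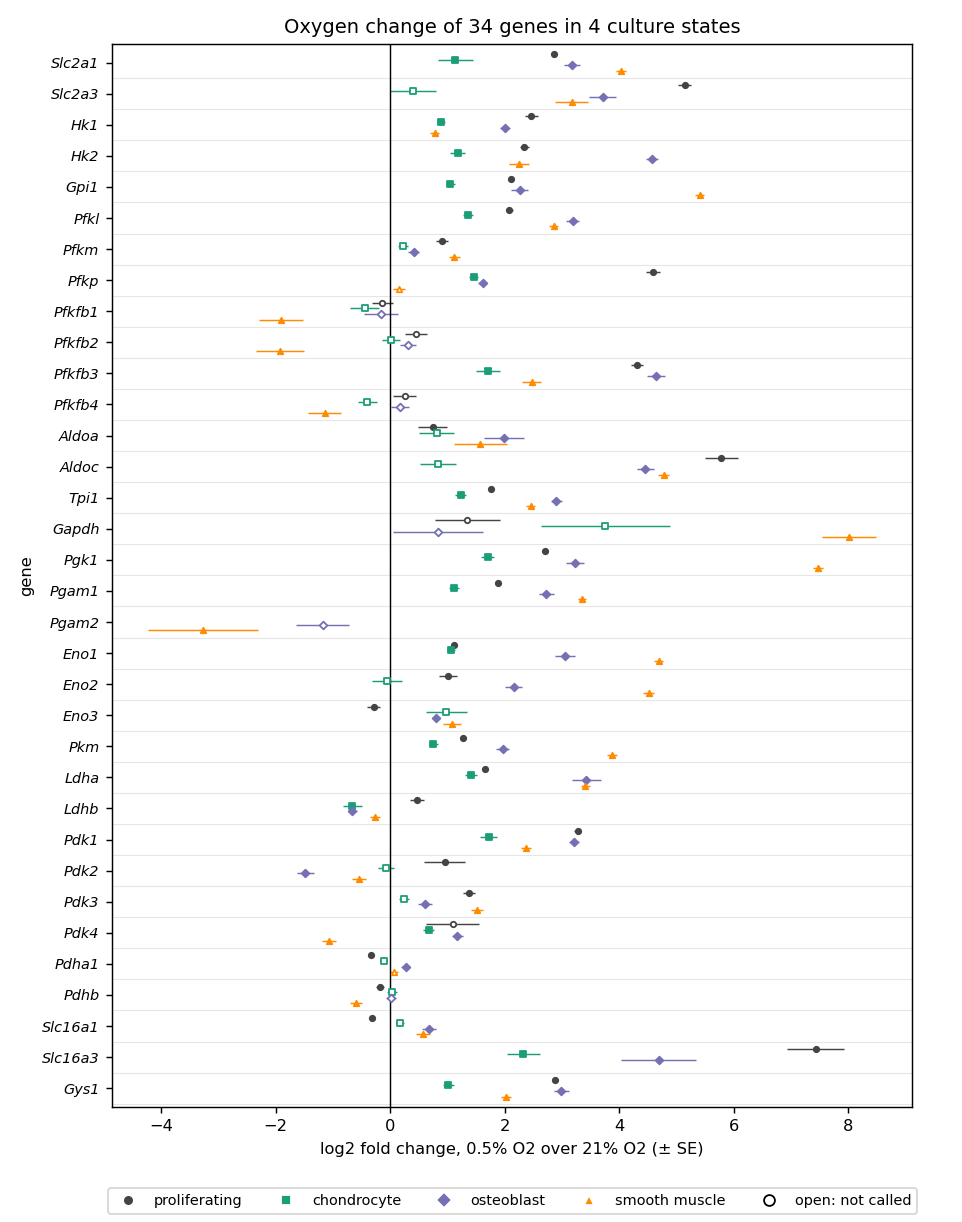
The log2 change from 21% to 0.5% O2 is plotted on the x axis for each gene (y axis), with its standard error, in proliferating cells (circles) and in chondrocyte (squares), osteoblast (diamonds) and smooth muscle (triangles) cultures; filled symbols passed an adjusted p of 0.05. Most symbols lie right of 0, and the chondrocyte squares mostly lie nearest to 0, between -0.66 and 1.72 among the changes called except Slc16a3 at 2.33.

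14 members rose in all 4 culture states: Slc2a1, Hk1, Hk2, Gpi1, Pfkl, Pfkfb3, Tpi1, Pgk1, Pgam1, Eno1, Pkm, Ldha, Pdk1 and Gys1. The smooth muscle change of Hk1 was -0.59 with library size alone, and the chondrocyte call of Slc2a1 was lost when any of 5 of its 7 libraries was left out (adjusted p = 0.0879 to 0.133). They include an enzyme for nearly every step from glucose entry to lactate. A further 8 rose in 3 states, 3 in 2 states, 4 in 1 and 5 in none. Of the 16152 genes tested in at least 1 state, 2.29% rose in 4 states, 6.19% in 3, 17.0% in 2, 33.5% in 1 and 41.1% in none. The members called in opposite directions in different states were 6 of 34, beside 31.5% of all genes, and 11 were called lower in at least 1 state, beside 62.5%. Together the 34 genes took 0.920% ± 0.019 (SD, n = 4) of all counts in normoxic and 2.86% ± 0.056 (SD, n = 3) in hypoxic proliferating cells. In chondrocyte cultures the shares were 0.678% ± 0.055 and 1.44% ± 0.065, in osteoblast cultures 0.359% ± 0.031 and 1.67% ± 0.090, and in smooth muscle cultures 0.351% ± 0.010 and 3.40% ± 0.068, with the same numbers of libraries. At 21% O2 the proliferating cells thus held the highest share and the osteoblast and smooth muscle cultures, whose libraries overlapped (0.337% to 0.404% and 0.342% to 0.361%), the lowest. Per kilobase of exon, Pkm (491 CPM per kb), Pgk1 (386) and Ldha (264) had the highest mean levels of the members in normoxic proliferating cells, and Pgk1 (2410), Pkm (1147) and Ldha (799.7) in hypoxic ones.

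**Figure D2:**
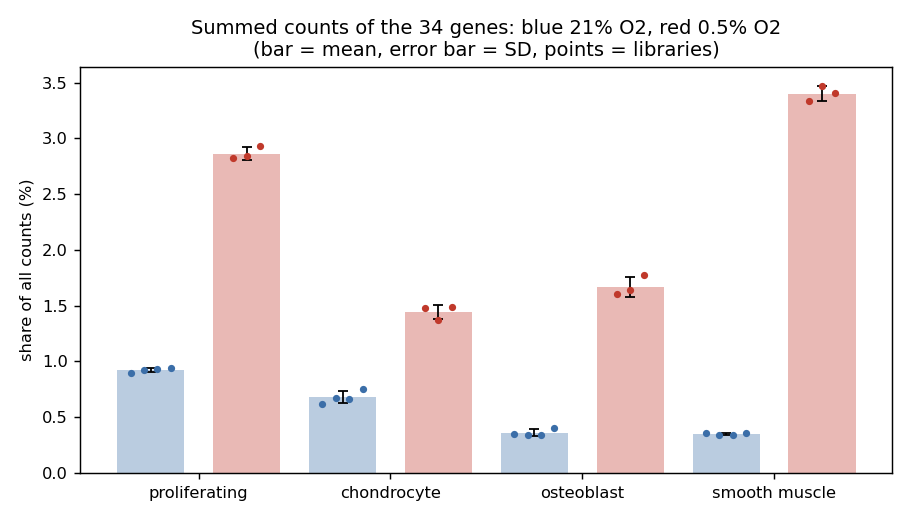
The share of all counts that fell on the 34 genes (y axis, percent) is drawn for the 4 culture states, blue at 21% O2 (4 libraries) and red at 0.5% O2 (3 libraries), with bars for the mean, error bars for the SD and points for the libraries. Hypoxic libraries lie above normoxic ones in each state, from 1.37% to 1.49% against 0.617% to 0.750% in chondrocyte cultures and from 3.33% to 3.47% against 0.342% to 0.361% in smooth muscle cultures.

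The stretches just before the start of 5 of the genes are shown because 4 of them (Ldha, Pgk1, Hk2 and Pdk1) rose in all 4 states and the fifth, Ldhb, fell in 3 of them. Each is 250 bases long, from RefSeq on GRCm38.p6, written 5′ to 3′ on the gene's own strand and ends at the base before the RefSeq start. Capitals mark ACGTG or GCGTG, the core of the hypoxia response element, on either strand (CACGT and CACGC are the same cores read on the other strand, and CACGTG counts for both strands).
Ldha, chr7:46845554-46845803, plus strand: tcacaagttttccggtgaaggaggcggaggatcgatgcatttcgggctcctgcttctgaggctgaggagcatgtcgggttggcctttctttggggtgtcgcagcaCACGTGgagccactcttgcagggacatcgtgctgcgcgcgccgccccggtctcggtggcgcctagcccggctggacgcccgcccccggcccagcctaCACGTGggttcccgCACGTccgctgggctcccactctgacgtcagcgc
Pgk1, chrX:106186850-106187099, plus strand: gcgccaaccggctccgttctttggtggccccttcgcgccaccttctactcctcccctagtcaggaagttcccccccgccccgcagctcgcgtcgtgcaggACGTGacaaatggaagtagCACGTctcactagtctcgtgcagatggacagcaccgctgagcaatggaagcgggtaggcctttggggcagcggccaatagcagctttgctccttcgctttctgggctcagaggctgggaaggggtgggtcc
Hk2, chr6:82774455-82774704, minus strand: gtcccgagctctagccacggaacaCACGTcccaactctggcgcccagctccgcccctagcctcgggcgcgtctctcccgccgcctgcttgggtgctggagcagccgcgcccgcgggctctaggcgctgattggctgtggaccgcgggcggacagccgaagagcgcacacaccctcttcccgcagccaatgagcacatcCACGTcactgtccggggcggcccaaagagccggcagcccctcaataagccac
Pdk1, chr2:71872974-71873223, plus strand: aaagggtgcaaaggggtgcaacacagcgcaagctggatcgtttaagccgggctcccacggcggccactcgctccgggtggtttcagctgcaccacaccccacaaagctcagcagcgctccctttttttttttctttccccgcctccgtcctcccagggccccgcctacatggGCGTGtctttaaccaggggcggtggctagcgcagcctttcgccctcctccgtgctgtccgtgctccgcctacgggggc
Ldhb, chr6:142507958-142508207, minus strand: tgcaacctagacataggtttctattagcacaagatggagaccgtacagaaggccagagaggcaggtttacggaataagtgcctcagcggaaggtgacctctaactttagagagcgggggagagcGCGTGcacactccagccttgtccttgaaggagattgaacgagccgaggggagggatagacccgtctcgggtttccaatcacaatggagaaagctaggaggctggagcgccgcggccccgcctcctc
RefSeq lists a further start downstream for Ldha and for Pdk1, and the upstream window of each is printed; the other windows held 1 and 0 matches. The printed Ldha window held 5 matches, those of Pgk1 and Hk2 held 2 each, and those of Pdk1 and Ldhb held 1 each. RefSeq had such a window for 33 of the 34 members, and 28 of these (84.8%) had a match in any of their windows, beside 41.5% of all 27025 genes in the same table (38.6% of the 32851 single windows, and 73.1% of the 52 windows of members). The share was 11 of 14 (78.6%) among the members that rose in all 4 states and 17 of 19 (89.5%) among the other members with a window. Gpi1, Tpi1 and Gys1, which rose in all 4 states, did not hold these letters in their windows. A match is a description of the letters and not a measured binding site.

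Some rows need care. Exons of 11 members overlap exons of a gene on the opposite strand and those of 3 members a gene on the same strand in GENCODE vM21 (GRCm38), the annotation that the coordinates below come from. The library kit is named as stranded, but use of strand in the counting is not given in the sources used here, so reads of such partners may not be separable; the shared part was largest for Pfkfb2 (17.4% of its exon bases, with Gm29427), Pdha1 (16.2%, with Map3k15), Pkm (15.3%, with Gm49759) and Gpi1 (11.5%, with Gm26762). The Aldoa row is a small locus of the same symbol (chr7:126800790-126809108) beside the main aldolase A gene (chr7:126795234-126800751), which is not analysed here. Gapdh, Pgk1, Eno1, Ldha and Pgam1 have near-identical pseudogenes or retrogenes that can share reads with them.

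Glucose transporter transcripts rose with low oxygen, Slc2a1 in all 4 states and Slc2a3 in 3. Slc2a1 (chr4:119108711-119137983) encodes GLUT1, the widely expressed glucose transporter. In proliferating cells its level was 81.9, 87.6, 81.4 and 88.8 CPM at 21% O2 and 590.0, 592 and 588 CPM at 0.5% O2. Osteoblast cultures held 82.0, 89.4, 88.2 and 74.7 CPM at 21% O2 and 615, 738 and 912 CPM at 0.5% O2. Hypoxic libraries lay above all normoxic ones in both states, with log2 changes of 2.85 ± 0.05 (SE, adjusted p = 2.55e-14) and 3.18 ± 0.14 (SE, adjusted p = 3.94e-07). Smooth muscle cultures gave 33.0, 34.4, 36.9 and 35.2 CPM at 21% O2 and 489, 594 and 546 CPM at 0.5% O2, again without overlap, a change of 4.02 ± 0.09 (SE, adjusted p = 1.1e-14). Chondrocyte cultures gave 90.1, 151, 142 and 231 CPM at 21% O2 and 393, 306 and 319.6 CPM at 0.5% O2. The hypoxic libraries were again above the normoxic ones, of which replicate 4 was highest, but the change of 1.14 ± 0.30 (SE, adjusted p = 0.0428) was lost without normoxic replicate 2 (adjusted p = 0.0894) or 3 (0.108), without hypoxic replicate 1 (0.133), 2 (0.0879) or 3 (0.0934), and with no filter on low counts (0.0945), at log2 changes of 1.02 to 1.21. Slc2a3, the high-affinity transporter GLUT3, rose from a mean of 1.39 to 47.2 CPM in proliferating cells (5.14 ± 0.11 SE, adjusted p = 3.54e-13) and also in osteoblast (3.71) and smooth muscle cultures (3.17); in chondrocyte cultures the libraries overlapped and the change was 0.40 ± 0.40 (SE, adjusted p = 0.548).

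Genes of the first steps rose as well. Hk2 (chr6:82725025-82774454), the inducible hexokinase that traps glucose as glucose 6-phosphate on the mitochondrial surface, was found in proliferating cells at 56.5, 54.8, 55.1 and 43.6 CPM at 21% O2 and 248, 247 and 275 CPM at 0.5% O2. Chondrocyte cultures had 60.4, 77.7, 76.2 and 77.6 CPM at 21% O2 and 205, 154 and 139 CPM at 0.5% O2. Both changes, 2.34 ± 0.08 (SE, adjusted p = 6.56e-11) and 1.18 ± 0.14 (SE, adjusted p = 0.000394), came with no overlap between libraries. Osteoblast cultures had the widest range, 13.5, 15.3, 14.8 and 12.0 CPM at 21% O2 and 335, 337 and 316 CPM at 0.5% O2. Smooth muscle libraries ranged lower, with 9.71, 10.4, 8.18 and 6.94 CPM at 21% O2 and 32.4, 36.1 and 51.4 CPM at 0.5% O2. The osteoblast change was 4.57 ± 0.10 (SE, adjusted p = 3.33e-08), from libraries that were low at 21% O2 to the highest Hk2 levels of any group, and that in smooth muscle cultures was 2.24 ± 0.17 (SE, adjusted p = 1.73e-08). Hk1, the constitutive hexokinase, changed by 2.46, 0.89, 2.01 and 0.78 in proliferating, chondrocyte, osteoblast and smooth muscle cells (the last was -0.59 with library size alone), and Gpi1, which isomerizes glucose 6-phosphate, by 2.10, 1.05, 2.26 and 5.40. All 8 of these changes were called.

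Phosphofructokinase, which commits sugar to glycolysis, is built from 3 subunits that behaved differently. Pfkl, the liver subunit, rose in all 4 states (2.08, 1.36, 3.19 and 2.86, in the order above). Pfkm, the muscle subunit, changed least among the subunits in the first 3 states (0.91, 0.22, 0.41 and 1.12); its chondrocyte change was not called (adjusted p = 0.0698), and the smooth muscle value was -0.25 with library size alone. Pfkp (chr13:6579768-6648777), the platelet subunit, was low in normoxic proliferating cells, with 11.4, 12.4, 11.5 and 16.6 CPM at 21% O2 and 285, 292 and 315 CPM at 0.5% O2. Chondrocyte cultures gave 106, 121, 121 and 100.0 CPM at 21% O2 and 327, 292 and 310.3 CPM at 0.5% O2. Neither state overlapped; hypoxic levels lay close together while normoxic ones were far apart, and the changes were 4.59 ± 0.12 (SE, adjusted p = 8.95e-10) and 1.46 ± 0.08 (SE, adjusted p = 7.19e-07). Osteoblast cultures had 92.3, 83.9, 82.2 and 86.0 CPM at 21% O2 and 253, 268 and 269.9 CPM at 0.5% O2, a change of 1.61 ± 0.08 (SE, adjusted p = 5.73e-07) without overlap. In smooth muscle cultures Pfkp stood at 51.8, 51.5, 48.8 and 41.9 CPM at 21% O2 and 47.3, 58.2 and 50.0 CPM at 0.5% O2, libraries that overlapped, and the change of 0.16 ± 0.11 (SE, adjusted p = 0.19) was not called; with a mean of at least 50 counts required it was 0.26 (adjusted p = 0.0363), and with library size alone -1.21 (adjusted p = 5.67e-08).

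Of the 4 genes for the bifunctional enzymes that set fructose 2,6-bisphosphate, the activator of phosphofructokinase, Pfkfb3 was the one that rose in all states. Pfkfb3 (chr2:11471433-11554077), the isoform with the strongest kinase activity, measured 1.96, 1.96, 2.58 and 2.24 CPM at 21% O2 and 39.7, 40.2 and 43.2 CPM at 0.5% O2 in proliferating cells. Osteoblast cultures had 11.5, 12.4, 11.3 and 17.0 CPM at 21% O2 and 298, 331 and 352 CPM at 0.5% O2. Neither state had any overlap, and the changes were 4.31 ± 0.10 (SE, adjusted p = 7.24e-13) and 4.64 ± 0.16 (SE, adjusted p = 1.46e-07), the latter among the 2 largest in osteoblast cultures. Chondrocyte cultures began from a higher normoxic level, 28.1, 46.8, 45.2 and 44.9 CPM at 21% O2 and 171, 115 and 119 CPM at 0.5% O2. Smooth muscle cultures had 5.48, 4.32, 4.26 and 4.05 CPM at 21% O2 and 20.9, 26.8 and 24.5 CPM at 0.5% O2. The changes were 1.71 ± 0.21 (SE, adjusted p = 0.00141) and 2.47 ± 0.16 (SE, adjusted p = 2.43e-09), both without overlap.

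Pfkfb4 (chr9:108991778-109032228), often listed among hypoxia-induced isoforms, did not rise by this test in any state. Its proliferating libraries held 3.50, 4.20, 4.11 and 6.48 CPM at 21% O2 and 5.43, 4.60 and 5.61 CPM at 0.5% O2 and overlapped, with normoxic replicate 4 above the hypoxic ones; the change was 0.26 ± 0.20 (SE, adjusted p = 0.275), and without that replicate 0.45 (adjusted p = 0.0118). Chondrocyte cultures had 15.6, 14.8, 10.6 and 10.7 CPM at 21% O2 and 9.60, 10.6 and 9.49 CPM at 0.5% O2. For osteoblast cultures the values were 6.25, 6.07, 5.76 and 4.93 CPM at 21% O2 and 7.59, 5.74 and 6.02 CPM at 0.5% O2. The chondrocyte libraries were all lower at 0.5% O2 and the osteoblast ones overlapped, with changes of -0.40 ± 0.16 (SE, adjusted p = 0.101), or -0.48 (adjusted p = 0.0428) without normoxic replicate 4, and 0.16 ± 0.16 (SE, adjusted p = 0.405). In smooth muscle cultures it fell from 5.33, 4.40, 4.09 and 5.83 CPM to 1.65, 1.99 and 2.78 CPM, without overlap (-1.14 ± 0.29 SE, adjusted p = 0.0021). Pfkfb2, the heart isoform, fell there too, from 6.49, 7.36, 5.68 and 5.07 to 0.300, 2.19 and 2.32 CPM, with replicate 1 lowest (-1.93 ± 0.42 SE, adjusted p = 0.000753). Pfkfb1, the liver isoform, also fell in smooth muscle cultures (-1.91 ± 0.39 SE, adjusted p = 0.000421) and was not called elsewhere. Pfkfb2 was not called elsewhere either: its proliferating change of 0.45 ± 0.20 (SE, adjusted p = 0.0588) was called without normoxic replicate 4 (0.47, adjusted p = 0.0414) or hypoxic replicate 1 (0.56, adjusted p = 0.0422).

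Aldolase splits fructose 1,6-bisphosphate. Aldoc (chr11:78322968-78327781), the brain isoform, was at 3.63, 3.26, 3.08 and 7.46 CPM at 21% O2 and 212, 210.1 and 238 CPM at 0.5% O2 in proliferating cells. In osteoblast cultures it was at 2.79, 1.97, 1.93 and 1.76 CPM at 21% O2 and 44.5, 47.3 and 47.2 CPM at 0.5% O2. No hypoxic library overlapped a normoxic one, although normoxic proliferating replicate 4 stood above its group, and the changes were 5.78 ± 0.29 (SE, adjusted p = 7.9e-06) and 4.45 ± 0.15 (SE, adjusted p = 1.17e-07); the first was among the 2 largest rises in proliferating cells. Smooth muscle cultures had 8.48, 8.16, 9.05 and 10.1 CPM at 21% O2 and 229.8, 238 and 238 CPM at 0.5% O2. For chondrocyte cultures the values were 6.79, 19.2, 17.0 and 11.9 CPM at 21% O2 and 26.2, 21.1 and 26.1 CPM at 0.5% O2. The smooth muscle change was 4.78 ± 0.10 (SE, adjusted p = 6.24e-15). The chondrocyte libraries did not overlap, yet the change of 0.84 ± 0.32 (SE, adjusted p = 0.11) was not called unless normoxic replicate 1, the lowest, was left out (0.61, adjusted p = 0.0287) or all 8 groups entered the fit (0.84, adjusted p = 0.0187). The Aldoa locus measured here stayed at 3.33 CPM or less in all libraries; its changes were 0.74, 0.81, 1.99 and 1.57, of which that in chondrocyte cultures was called only without normoxic replicate 4 (1.04, adjusted p = 0.032), that in proliferating cells was lost without normoxic replicate 3 (adjusted p = 0.0517) or hypoxic replicate 3 (0.108), and that in smooth muscle cultures was 0.21 (adjusted p = 0.67) with library size alone. Tpi1, triose phosphate isomerase, rose in all 4 states by 1.76, 1.23, 2.90 and 2.45.

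Gapdh and Pgk1 stand at the step that yields NADH and the first ATP. The Gapdh row (chr6:125161715-125166467) is uncertain, since its level was low for an abundant enzyme and scattered widely: 62.8, 142, 172 and 59.1 CPM at 21% O2 and 169, 196 and 434 CPM at 0.5% O2 in proliferating cells. In chondrocyte cultures it was 51.5, 13.0, 11.8 and 11.6 CPM at 21% O2 and 361, 32.4 and 515 CPM at 0.5% O2. These libraries overlapped, and the changes of 1.35 ± 0.56 (SE, adjusted p = 0.0874) and 3.76 ± 1.12 (SE, adjusted p = 0.0727) were not called by edgeR; DESeq2 called both (adjusted p = 0.035 and 0.000629), and the second was called without hypoxic replicate 2 (4.29, adjusted p = 0.0299). Osteoblast cultures (56.5, 10.5, 11.8 and 16.2 CPM at 21% O2 and 81.7, 24.6 and 20.5 CPM at 0.5% O2) overlapped too, with 0.83 ± 0.79 (SE, adjusted p = 0.412), or 1.71 (adjusted p = 0.0418) without normoxic replicate 1. In smooth muscle cultures Gapdh went from 12.7, 11.0, 8.61 and 20.0 to 2122, 4624 and 2923 CPM, the largest rise among members there (8.01 ± 0.47 SE, adjusted p = 1.14e-05). The rows named as Gapdh pseudogenes held at most 18 counts in any library.

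Pgk1 (chrX:106187100-106203699), phosphoglycerate kinase, was at 827, 888, 886 and 865 CPM at 21% O2 and 5241, 5236 and 5746 CPM at 0.5% O2 in proliferating cells. In chondrocyte cultures there were 754, 931, 858 and 1081 CPM at 21% O2 and 3052, 2816 and 3015 CPM at 0.5% O2. In osteoblast cultures there were 294, 267, 283 and 403 CPM at 21% O2 and 2807, 2915 and 3056 CPM at 0.5% O2. All hypoxic libraries lay above the normoxic ones, with changes of 2.70 ± 0.05 (SE, adjusted p = 3.81e-14), 1.70 ± 0.11 (SE, adjusted p = 1.59e-06) and 3.23 ± 0.15 (SE, adjusted p = 5.69e-07). Smooth muscle cultures went from 209.9, 188, 185 and 193 CPM to 31767, 32996 and 34243 CPM, the second largest rise there (7.47 ± 0.09 SE, adjusted p = 9.84e-17); the summed mean of all 34 members in those libraries was 65711 CPM, and 29486 CPM without Gapdh and Pgk1. Its retrogene row Pgk1-rs7 moved with it, by 2.54, 1.27, 3.85 and 8.25 in the order proliferating, chondrocyte, osteoblast and smooth muscle, from 2.71, 4.51, 0.962 and 0.496 CPM at 21% O2.

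Lower glycolysis followed. Pgam1, phosphoglycerate mutase, rose by 1.88, 1.12, 2.72 and 3.35, and Pkm, pyruvate kinase, by 1.28, 0.75, 1.97 and 3.88, in the same order. Eno1, the main enolase, rose by 1.12, 1.06, 3.06 and 4.69, and its retrogene row Eno1b by 1.07, 1.11, 3.10 and 4.74, so reads of the gene and its copy may not be separable. Pgam2 (chr11:5801640-5803733), the muscle mutase, was barely counted: smooth muscle libraries had 0.766, 0.752, 0.464 and 0.554 CPM at 21% O2 and 0, 0 and 0.185 CPM at 0.5% O2. That is 88 counts against 2, a ratio of 0.0923 with an exact 95% counting interval of 0.0110 to 0.343. Pgam2 passed the filter there through its normoxic libraries alone. The fitted change was -3.26 ± 0.96 (SE, adjusted p = 0.00652), or -2.62 without hypoxic replicate 1 and -7.10 without hypoxic replicate 3. By fold it was the largest fall among members there, but from hypoxic counts near 0. In osteoblast cultures the Pgam2 change of -1.18 ± 0.47 (SE, adjusted p = 0.0573) was not called except without normoxic replicate 1 (-1.34, adjusted p = 0.0487) or with library size alone (-1.34, adjusted p = 0.0358).

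Eno2 (chr6:124760053-124769673), the neuronal enolase, separated the culture states. Proliferating cells had 11.1, 11.3, 8.78 and 15.1 CPM at 21% O2 and 20.9, 20.4 and 25.4 CPM at 0.5% O2. The chondrocyte libraries held 7.68, 11.2, 11.7 and 9.71 CPM at 21% O2 and 14.6, 7.91 and 6.60 CPM at 0.5% O2. The first did not overlap (1.00 ± 0.15 SE, adjusted p = 0.000116), the second did (-0.06 ± 0.26 SE, adjusted p = 0.902). The osteoblast libraries held 16.3, 18.3, 16.5 and 11.9 CPM at 21% O2 and 60.1, 72.4 and 78.4 CPM at 0.5% O2. For smooth muscle cultures the values were 21.6, 20.8, 18.1 and 16.5 CPM at 21% O2 and 424, 420.1 and 419 CPM at 0.5% O2. Both rose without overlap, by 2.16 ± 0.15 (SE, adjusted p = 4.75e-06) and 4.51 ± 0.10 (SE, adjusted p = 9.74e-15). Eno3 (chr11:70657202-70662513), the muscle enolase, went both ways: in proliferating cells it went from 39.7, 42.3, 43.0 and 55.5 to 35.4, 38.4 and 32.6 CPM, a change of -0.29 ± 0.11 (SE, adjusted p = 0.0434). That call was lost without normoxic replicate 3 (adjusted p = 0.0542), hypoxic replicate 1 (0.101) or hypoxic replicate 3 (0.166), with limma-voom (0.0555), with a mean of at least 50 counts required (0.0686) and in a fit of all 8 groups (0.201). It rose in osteoblast cultures from 43.0, 42.7, 44.4 and 44.4 to 78.3, 76.1 and 74.9 CPM (0.81 ± 0.07 SE, adjusted p = 1.77e-05). In smooth muscle cultures it rose from 15.5, 14.7, 11.4 and 18.2 to 24.6, 31.9 and 34.5 CPM (1.08 ± 0.16 SE, adjusted p = 2.19e-05; -0.29, adjusted p = 0.107, with library size alone). Chondrocyte libraries did not overlap, at 28.6, 11.5, 12.3 and 26.1 CPM at 21% O2 and 41.8, 38.5 and 36.9 CPM at 0.5% O2. That change of 0.98 ± 0.36 (SE, adjusted p = 0.104) was called without normoxic replicate 1 (1.23, adjusted p = 0.0466), by DESeq2 (0.0484) and in the fit of all 8 groups (0.00205).

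**Figure D3:**
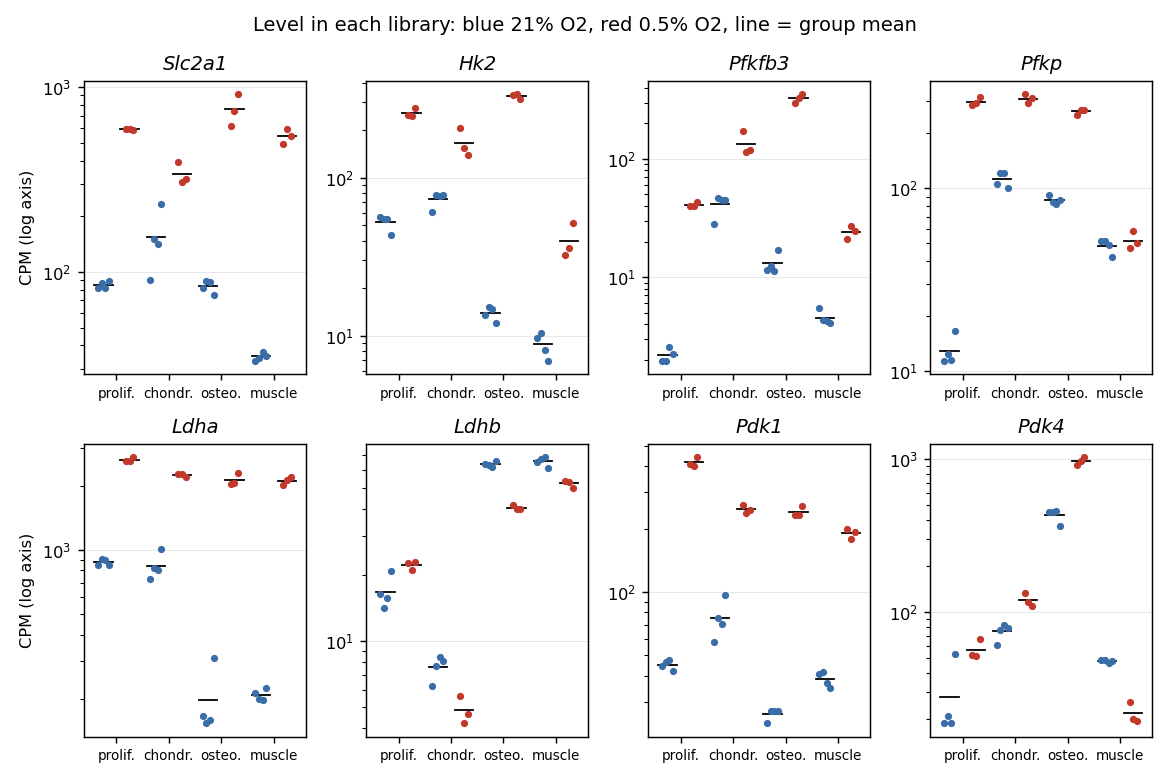
The level of 8 genes in each library (y axis, CPM on a log axis) is plotted by culture state, blue at 21% O2, red at 0.5% O2, with a line at the group mean. Slc2a1, Hk2, Pfkfb3, Ldha and Pdk1 show red points above blue ones in each state, Pfkp does so in all but smooth muscle cultures, Ldhb shows red below blue in all but proliferating cells, and Pdk4 shows red below blue in smooth muscle cultures.

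The 2 lactate dehydrogenase subunits parted. Ldha (chr7:46841475-46855627) encodes the subunit that favours lactate formation, and Ldhb (chr6:142490249-142507957) the one that favours its oxidation to pyruvate. Ldha in proliferating cells was at 849, 905, 899.9 and 846 CPM at 21% O2 and 2603, 2613 and 2725 CPM at 0.5% O2. Chondrocyte cultures measured 727, 824, 800.0 and 1014 CPM at 21% O2 and 2271, 2259.9 and 2199 CPM at 0.5% O2. Both rose without overlap, by 1.65 ± 0.04 (SE, adjusted p = 1.39e-12) and 1.41 ± 0.10 (SE, adjusted p = 4.06e-06). Osteoblast cultures measured 167, 153, 159 and 311 CPM at 21% O2 and 2027, 2062 and 2296 CPM at 0.5% O2. The smooth muscle group gave 214, 199, 198 and 225 CPM at 21% O2 and 2020.2, 2118 and 2206 CPM at 0.5% O2. Hypoxic libraries of both states lay below the hypoxic proliferating ones, and started from lower normoxic levels. The changes were 3.43 ± 0.26 (SE, adjusted p = 1.41e-05) and 3.40 ± 0.08 (SE, adjusted p = 1.45e-14). The pseudogene row Ldha-ps2 rose too, from 2.10 to 5.88 CPM in proliferating cells.

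Ldhb rose in proliferating cells and fell in the 3 differentiated states. Proliferating libraries held 16.3, 14.2, 15.7 and 20.9 CPM at 21% O2 and 22.8, 21.1 and 22.8 CPM at 0.5% O2. For chondrocyte cultures the values were 6.23, 7.68, 8.43 and 8.11 CPM at 21% O2 and 5.64, 4.21 and 4.63 CPM at 0.5% O2. Neither overlapped, with a rise of 0.47 ± 0.12 (SE, adjusted p = 0.00388) in the first, and the second was a change of -0.66 ± 0.16 (SE, adjusted p = 0.0133) that was not called without hypoxic replicate 2 (-0.57, adjusted p = 0.0603) or 3 (-0.63, adjusted p = 0.0577). For osteoblast cultures the values were 63.8, 63.2, 61.9 and 66.3 CPM at 21% O2 and 41.6, 39.8 and 40.1 CPM at 0.5% O2. The smooth muscle libraries held 65.1, 67.7, 68.8 and 61.5 CPM at 21% O2 and 53.6, 53.2 and 49.7 CPM at 0.5% O2. Both fell without overlap, with changes of -0.66 ± 0.07 (SE, adjusted p = 8.08e-05) and -0.27 ± 0.09 (SE, adjusted p = 0.0102); the last was not called with a mean of at least 50 counts required (-0.17, adjusted p = 0.0843). The difference between states was itself called: the oxygen change of Ldhb differed from that in proliferating cells by -1.11 in chondrocyte (adjusted p = 0.000237), -1.08 in osteoblast (adjusted p = 1.41e-05) and -0.70 in smooth muscle cultures (adjusted p = 0.000217).

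Within a library, the ratio of Ldha to Ldhb counts needs no scaling. Its mean went from 52.6 at 21% O2 to 119 at 0.5% O2 in proliferating cells, from 110 to 466 in chondrocyte, from 2.96 to 52.5 in osteoblast and from 3.17 to 40.5 in smooth muscle cultures, and no hypoxic library overlapped a normoxic one. In log2 the rise of the ratio was 1.18, 2.08, 4.15 and 3.67. Normoxic osteoblast and smooth muscle cultures were thus the groups with the least Ldha relative to Ldhb, and at each oxygen level the chondrocyte cultures had the most. With 4 against 3 libraries an exact two-sided permutation test cannot reach p below 0.05 (the smallest it can give is 0.0571), so ratios are given as values.

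**Figure D4:**
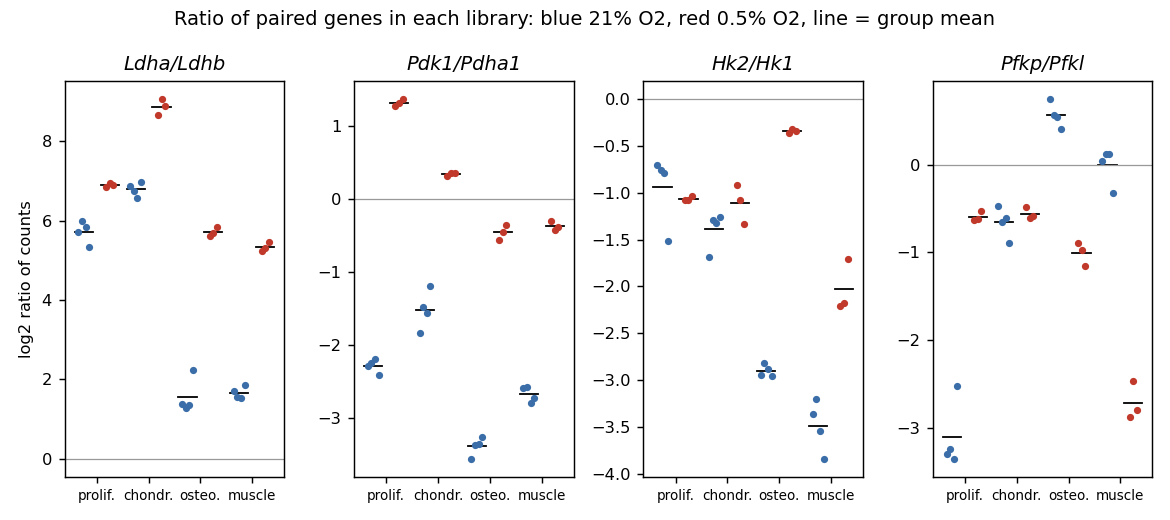
The log2 ratio of the counts of 2 genes in each library (y axis) is plotted by culture state, blue at 21% O2 and red at 0.5% O2, with a line at the mean. The ratio Ldha/Ldhb rose in all 4 states (means 5.72 to 6.89, 6.78 to 8.87, 1.56 to 5.71 and 1.67 to 5.34) and so did Pdk1/Pdha1, Hk2/Hk1 rose without overlap in osteoblast and smooth muscle cultures (2.56 and 1.45), and Pfkp/Pfkl rose in proliferating cells (2.51) and fell in osteoblast (-1.57) and smooth muscle cultures (-2.70).

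Among the 4 kinases that inhibit pyruvate dehydrogenase, Pdk1 was the one that rose in all states. Pdk1 (chr2:71873224-71903858) phosphorylates and inhibits pyruvate dehydrogenase. In proliferating cells it was at 44.3, 46.5, 47.4 and 41.8 CPM at 21% O2 and 412, 401 and 442 CPM at 0.5% O2. In chondrocyte cultures there were 58.1, 75.0, 70.7 and 97.1 CPM at 21% O2 and 261, 239 and 248 CPM at 0.5% O2. Neither overlapped, and the changes were 3.27 ± 0.05 (SE, adjusted p = 1.68e-14) and 1.72 ± 0.14 (SE, adjusted p = 8.52e-05), the latter the second largest rise among members called in chondrocyte cultures. In osteoblast cultures there were 23.6, 27.0, 27.2 and 27.1 CPM at 21% O2 and 233, 235 and 259 CPM at 0.5% O2. Smooth muscle cultures measured 40.7, 41.6, 36.8 and 34.8 CPM at 21% O2 and 201, 179.7 and 193 CPM at 0.5% O2. They rose by 3.20 ± 0.09 (SE, adjusted p = 5.78e-08) and 2.38 ± 0.09 (SE, adjusted p = 2.51e-12), again without overlap. Pdk3 rose in proliferating (1.38), osteoblast (0.61) and smooth muscle cultures (1.51; 0.15, adjusted p = 0.221, with library size alone), and not by this test in chondrocyte cultures (0.24 ± 0.09 SE, adjusted p = 0.0818).

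Pdk4 (chr6:5483351-5496309), the kinase linked to fat use and glucocorticoids, rose, fell or was not called depending on the culture state. Proliferating libraries held 18.8, 20.8, 18.7 and 53.5 CPM at 21% O2 and 52.4, 51.4 and 66.6 CPM at 0.5% O2. Normoxic replicate 4 stood far above the other 3 and inside the hypoxic range, and the change of 1.09 ± 0.46 (SE, adjusted p = 0.0891) was not called; without that library it was 1.59 (adjusted p = 1.05e-11), and DESeq2 (adjusted p = 0.0343), limma-voom (0.0247) and the fit of all 8 groups (0.00121) called it. The chondrocyte libraries held 61.2, 76.1, 82.3 and 78.8 CPM at 21% O2 and 133, 116 and 109.7 CPM at 0.5% O2. The osteoblast libraries held 451, 448, 457 and 365 CPM at 21% O2 and 917, 967 and 1027 CPM at 0.5% O2. Both rose without overlap, by 0.67 ± 0.10 (SE, adjusted p = 0.000708) and 1.17 ± 0.10 (SE, adjusted p = 1.79e-05); the first had an adjusted p of 0.0529 in the fit of all 8 groups. Smooth muscle cultures fell from 48.6, 48.9, 46.5 and 47.5 to 25.9, 20.0 and 19.4 CPM (-1.07 ± 0.11 SE, adjusted p = 6.39e-07). Dexamethasone was in the osteoblast and chondrocyte media only, and its part in these levels was not tested.

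Pdk2 (chr11:95026258-95041354), the broadly expressed kinase, went the other way in 2 states. It was barely counted in proliferating cells, 1.08, 1.03, 0.398 and 1.61 CPM at 21% O2 and 1.89, 1.65 and 2.19 CPM at 0.5% O2. The rise there was 0.95 ± 0.35 (SE, adjusted p = 0.0295), not called without normoxic replicate 2 (adjusted p = 0.0583) or hypoxic replicate 1 (0.0699) or 3 (0.11). Osteoblast cultures fell from 30.5, 33.5, 32.9 and 23.5 to 9.21, 11.5 and 11.6 CPM, the largest fall among members there (-1.48 ± 0.15 SE, adjusted p = 4.32e-05). Smooth muscle cultures fell from 32.2, 27.8, 31.5 and 34.2 to 18.1, 19.9 and 23.9 CPM (-0.54 ± 0.13 SE, adjusted p = 0.00123). Chondrocyte libraries overlapped, at 8.55, 10.4, 12.6 and 9.61 CPM at 21% O2 and 10.4, 9.76 and 9.30 CPM at 0.5% O2 (-0.07 ± 0.14 SE, adjusted p = 0.776).

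The enzyme itself moved little. Pdha1 (chrX:160122209-160138413), the alpha subunit that the kinases phosphorylate, fell in proliferating cells from 215, 221, 217 and 223 to 170.2, 161 and 171 CPM (-0.33 ± 0.05 SE, adjusted p = 1.97e-05). Osteoblast cultures rose from 278, 280.3, 279 and 259.5 to 343, 321 and 331 CPM (0.27 ± 0.08 SE, adjusted p = 0.0138; 0.12, adjusted p = 0.205, with library size alone). Chondrocyte and smooth muscle libraries overlapped, with 207, 209, 208 and 222 CPM at 21% O2 and 210.1, 187 and 193 CPM at 0.5% O2 in the first (-0.11 ± 0.06 SE, adjusted p = 0.245). Smooth muscle cultures gave 246, 248, 256 and 229.6 CPM at 21% O2 and 247, 241 and 252 CPM at 0.5% O2 (0.07 ± 0.07 SE, adjusted p = 0.36; -1.30, adjusted p = 6.54e-10, with library size alone, and 0.18, adjusted p = 0.0305, with a mean of at least 50 counts required). Pdhb, the beta subunit, fell in proliferating (-0.18 ± 0.06 SE, adjusted p = 0.0265) and smooth muscle cultures (-0.60 ± 0.10 SE, adjusted p = 0.000104), the first not called without hypoxic replicate 1 (adjusted p = 0.0766) or 2 (0.111) or with a mean of at least 50 counts required (0.0607). The log2 ratio of Pdk1 to Pdha1 counts rose by 3.60, 1.86, 2.93 and 2.30 in proliferating, chondrocyte, osteoblast and smooth muscle cultures without overlap, from means of -2.28, -1.52, -3.39 and -2.67.

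The 2 lactate transporters differed in level and direction. Slc16a3 (chr11:120948480-120960868), the lactate exporter MCT4, had the largest change of the members called in proliferating and chondrocyte cultures, at very low levels. In osteoblast cultures its change was not separated from those of Pfkfb3 (4.64) and Hk2 (4.57), which lay within its SE. In proliferating and osteoblast cultures it passed the filter through its hypoxic libraries. Proliferating libraries held 0.0269, 0, 0.199 and 0 CPM at 21% O2 and 7.48, 7.72 and 7.39 CPM at 0.5% O2. Those are 7 counts in all 4 normoxic libraries against 661 in the 3 hypoxic ones, a change of 7.43 ± 0.50 (SE, adjusted p = 6.22e-08) that was 6.65 without normoxic replicate 2 and 9.55 without normoxic replicate 3. Chondrocyte cultures measured 0.648, 0.485, 0.462 and 0.509 CPM at 21% O2 and 2.83, 3.07 and 2.17 CPM at 0.5% O2. Osteoblast cultures measured 0.105, 0.0788, 0.0339 and 0 CPM at 21% O2 and 2.28, 0.859 and 1.27 CPM at 0.5% O2. Both rose without overlap, by 2.33 ± 0.29 (SE, adjusted p = 0.000189) and 4.69 ± 0.65 (SE, adjusted p = 0.000311). Smooth muscle libraries did not overlap either (0.122, 0.161, 0.116 and 0.0292 CPM at 21% O2 and 0.975, 1.89 and 0.185 CPM at 0.5% O2) but were too low for the test; the authors' deposited table lists a log2 change of 2.87 with a p of 0.000484.

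Slc16a1 (chr3:104638668-104658462), the transporter MCT1 that moves lactate either way, fell in proliferating cells from 166, 174, 172 and 160.3 to 127, 125 and 137 CPM (-0.32 ± 0.05 SE, adjusted p = 5.67e-05), among the 2 largest falls there with Pdha1. Osteoblast cultures rose from 22.9, 20.1, 24.0 and 28.2 to 38.8, 37.4 and 38.4 CPM (0.68 ± 0.12 SE, adjusted p = 0.001). Smooth muscle cultures rose from 26.9, 32.9, 26.4 and 28.3 to 36.7, 39.9 and 45.7 CPM (0.57 ± 0.12 SE, adjusted p = 0.000381; -0.80 with library size alone). In chondrocyte cultures the values were 49.6, 48.2, 51.0 and 52.2 CPM at 21% O2 and 59.7, 57.2 and 53.0 CPM at 0.5% O2, without overlap (0.16 ± 0.07 SE, adjusted p = 0.109). The difference in oxygen change from proliferating cells was 0.50 in chondrocyte, 1.04 in osteoblast and 0.93 in smooth muscle cultures, each called (adjusted p = 7.93e-05, 5.74e-06 and 3.35e-07; the last was -0.41 with library size alone).

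Gys1 (chr7:45434844-45456619), muscle-type glycogen synthase, stores glucose as glycogen and shares 6.47% of its exon bases with Ruvbl2 on the other strand. Proliferating cells had 41.3, 42.6, 38.4 and 43.3 CPM at 21% O2 and 293, 291 and 298 CPM at 0.5% O2. For chondrocyte cultures the values were 78.8, 98.6, 95.5 and 105 CPM at 21% O2 and 214, 175 and 187 CPM at 0.5% O2. Both rose without overlap, by 2.88 ± 0.05 (SE, adjusted p = 3.81e-14) and 1.02 ± 0.10 (SE, adjusted p = 4.48e-05). For osteoblast cultures the values were 30.2, 29.9, 32.3 and 42.6 CPM at 21% O2 and 264, 276 and 264 CPM at 0.5% O2. For smooth muscle cultures the values were 29.1, 29.7, 28.4 and 34.1 CPM at 21% O2 and 117, 124 and 113 CPM at 0.5% O2. These rose by 2.99 ± 0.13 (SE, adjusted p = 3.94e-07) and 2.02 ± 0.09 (SE, adjusted p = 2.77e-11), also without overlap.

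How far the response depended on the culture state was tested as the difference between 2 oxygen changes. Against proliferating cells, the chondrocyte cultures responded less: the oxygen change was lower for 21 and higher for 3 of 33 members, beside 21.9% and 21.6% of 15310 genes, with a median difference of -0.75 against -0.032. Slc16a3 (-5.05, or -4.31 and -7.13 without normoxic proliferating replicate 2 or 3), Aldoc (-4.91), Slc2a3 (-4.73), Pfkp (-3.11) and Pfkfb3 (-2.59) differed most among those called. At 21% O2 all 5 were already higher in chondrocyte cultures than in proliferating cells, by 3.55 (2.84 and 5.69 without normoxic proliferating replicate 2 or 3), 1.74, 1.93, 3.19 and 4.33, each called; the 2 differences share their normoxic libraries. Osteoblast cultures had a higher change for 14 and a lower one for 8 of 34 members (28.9% and 25.3% of 15486 genes; median 0.17 against 0.0023), led by Hk2 (2.27 ± 0.13 SE, adjusted p = 2.59e-09) and Eno1 (1.98), with Pfkp (-2.93) and Pdk2 (-2.40) lowest among those called. Smooth muscle cultures had 14 higher and 16 lower of 34 (34.9% and 35.5% of 15640 genes; median 0.058 against -0.042; with library size alone 7 and 23 members, and 2019 and 10115 genes beside 5453 and 5550). The direct difference between osteoblast and chondrocyte cultures was higher for 21 and lower for 1 of 34 (20.1% and 17.7% of 15199 genes; median 1.18 against -0.0057). Hk2 (3.38 ± 0.18 SE, adjusted p = 6.46e-09), Aldoc (3.61 ± 0.39 SE, adjusted p = 1.26e-05), Pfkfb3 (2.93 ± 0.28 SE, adjusted p = 4.17e-06) and Ldha (2.01 ± 0.29 SE, adjusted p = 0.000112) were among the 21, and Pdk2 (-1.42 ± 0.21 SE, adjusted p = 8.73e-05) was the 1 that was lower.

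At 21% O2 the share of members called between culture states was near that of all genes in chondrocyte and osteoblast cultures. Against normoxic proliferating cells, chondrocyte cultures had 18 members higher and 8 lower of 33 (37.7% and 37.2% of 14360 genes; median 0.47 against -0.0029). Pfkfb3 rose by 4.33 ± 0.18 (SE, adjusted p = 1.65e-09), Pdk2 by 3.40 ± 0.29 (SE, adjusted p = 4.95e-07), Pfkp by 3.19 ± 0.12 (SE, adjusted p = 9.95e-10) and Slc2a3 by 1.93 ± 0.33 (SE, adjusted p = 0.000188), while Slc16a1 fell by 1.67 ± 0.05 (SE, adjusted p = 6.74e-11) and Ldhb by 1.07 ± 0.14 (SE, adjusted p = 2.34e-05) on the log2 scale. With library size alone the split was 15 and 14 members and 3899 and 7349 genes (5416 and 5344 with the factors). In osteoblast cultures 10 rose and 16 fell (40.9% and 37.8% of 14434 genes; median -0.24 against 0.066). Pdk2 (4.93 ± 0.30 SE, adjusted p = 2.83e-07), Pdk4 (4.00 ± 0.37 SE, adjusted p = 5.22e-06) and Ldhb (1.98 ± 0.12 SE, adjusted p = 2.18e-07) rose there, and Slc16a1 (-2.76 ± 0.10 SE, adjusted p = 1.07e-08), Eno1 (-2.63 ± 0.14 SE, adjusted p = 1.15e-07) and Ldha (-2.09 ± 0.22 SE, adjusted p = 1.58e-05) fell. In smooth muscle cultures 11 rose and 18 fell (40.8% and 38.9% of 14582 genes; median -0.40 against 0.028). Pdk2 (4.99 ± 0.21 SE, adjusted p = 2.28e-10) and Ldhb (2.03 ± 0.10 SE, adjusted p = 1.63e-10) rose, and Hk2 (-2.52 ± 0.12 SE, adjusted p = 4.77e-11), Slc16a1 (-2.50 ± 0.07 SE, adjusted p = 3.97e-14) and Pgk1 (-2.11 ± 0.06 SE, adjusted p = 3.8e-14) fell. In all 3 media Pdk2, Pfkp, Pfkfb3, Pfkfb2 and Pfkm rose and Slc16a1, Eno1, Pkm, Pdhb, Pfkfb1 and Gapdh fell. The share of all genes called the same way in all 3 was not counted, so these names are not set against a background. For Pfkm the chondrocyte change was -0.029 with library size alone (0.20 and not called in osteoblast cultures). Its chondrocyte and osteoblast calls and those of Gapdh were lost without single libraries (adjusted p = 0.0516 to 0.0631). These 3 comparisons share their proliferating libraries.

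At 0.5% O2 more members were lower than higher in each differentiated culture against hypoxic proliferating cells, although the summed level was higher in smooth muscle cultures (65711 against 24795 CPM, and 34023 against 28647 CPM with library size alone). Pgk1 made up 33002 and 5408 CPM of these sums. Chondrocyte cultures had 6 members higher and 22 lower of 33 (34.9% and 34.6% of 14347 genes; median -0.60 against -0.021; with library size alone 4 and 24 members, 3353 and 7202 genes beside 5005 and 4970). Aldoc fell by 3.18 ± 0.09 (SE, adjusted p = 6.76e-12) and Slc2a3 by 2.83 ± 0.24 (SE, adjusted p = 2.51e-05) in log2, and Pdk2 rose by 2.35 ± 0.17 (SE, adjusted p = 3.96e-08). Osteoblast cultures had 11 higher and 17 lower (36.2% and 35.1% of 14338 genes; median -0.19 against 0.0010; with library size alone 8 and 20 members, 3994 and 6459 genes beside 5193 and 5034). Pdk4 (4.09 ± 0.10 SE, adjusted p = 1.93e-14) and Pfkfb3 (2.99 ± 0.08 SE, adjusted p = 5.85e-14) rose, and Slc16a3 (-2.37 ± 0.26 SE, adjusted p = 9.18e-07) and Aldoc (-2.25 ± 0.07 SE, adjusted p = 5.83e-13) fell. Smooth muscle cultures had 12 higher and 16 lower (33.8% and 36.2% of 14080 genes; median -0.285 against -0.073; with library size alone 6 and 26 members, 1748 and 9941 genes beside 4763 and 5095). Eno2 (4.36 ± 0.10 SE, adjusted p = 3.34e-11) and Pdk2 (3.55 ± 0.20 SE, adjusted p = 2.61e-08) rose, and Hk2 (-2.57 ± 0.14 SE, adjusted p = 2.5e-08) and Pfkp (-2.40 ± 0.10 SE, adjusted p = 1.61e-09) fell. These 3 comparisons share the hypoxic proliferating libraries.

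**Figure D5:**
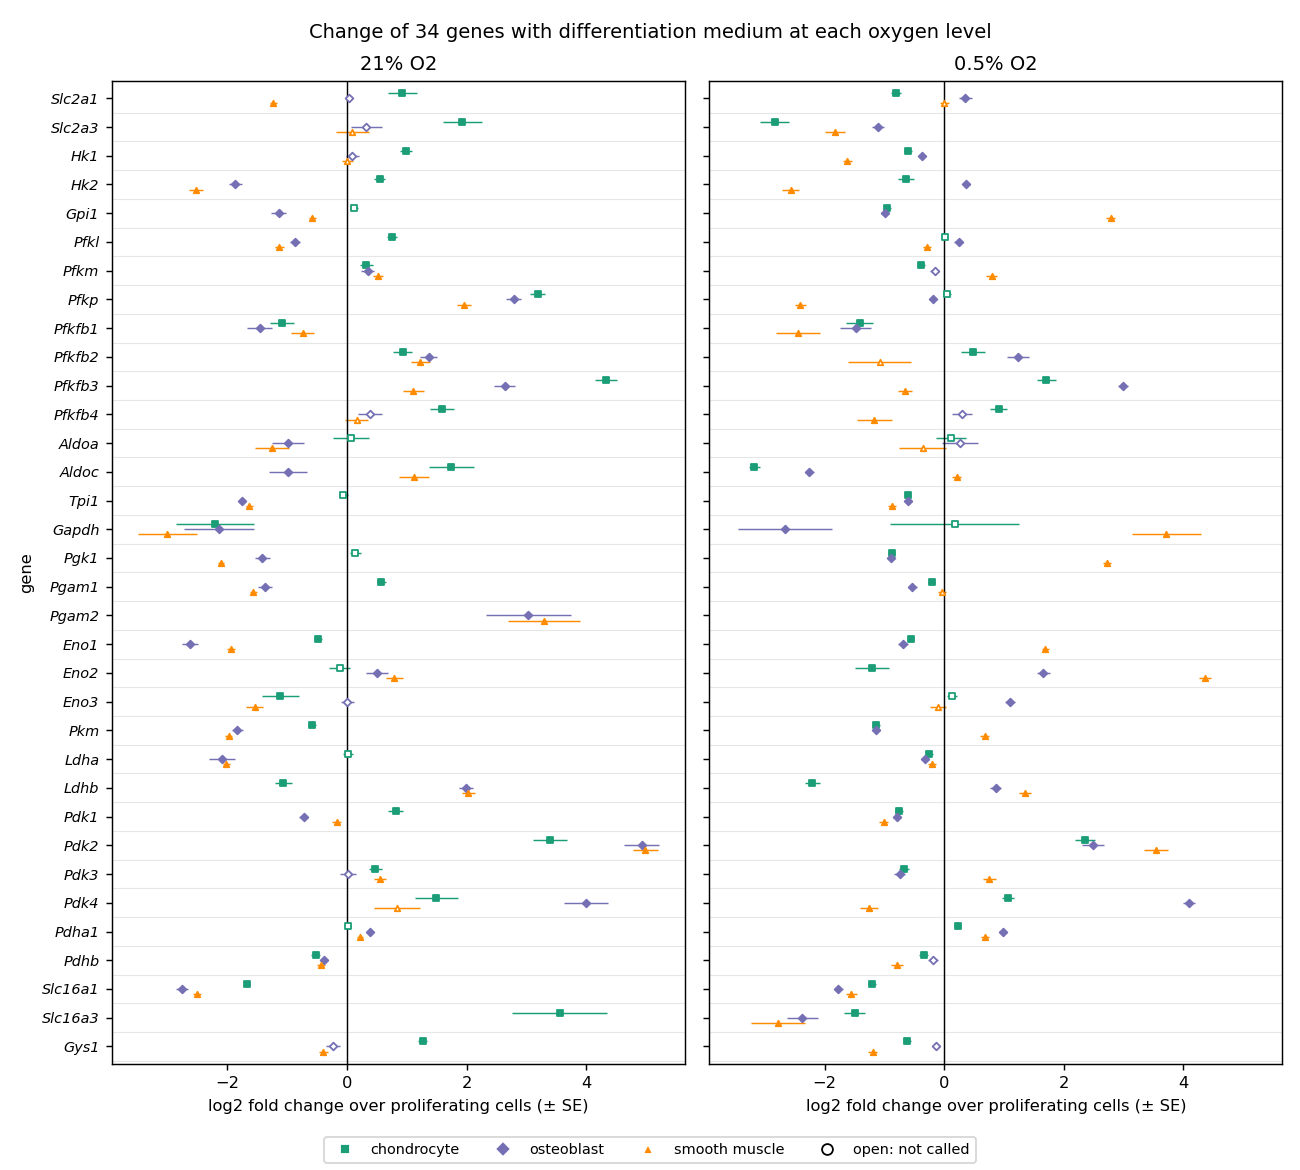
The log2 change from proliferating cells to each differentiation medium is plotted on the x axis for each gene (y axis) with its standard error, at 21% O2 on the left and 0.5% O2 on the right; filled symbols passed an adjusted p of 0.05, and genes not tested have no symbol. The kinase Pdk2 lies at the right in all 6 comparisons (2.35 to 4.99) and the transporter Slc16a1 at the left (-2.76 to -1.21).

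Genes of neighbouring pathways were compared in the same way. Over all genes 33.1% rose and 32.3% fell in proliferating, 10.4% and 11.8% in chondrocyte, 27.0% and 27.3% in osteoblast and 35.4% and 40.2% in smooth muscle cultures. Of 19 other genes known to respond to hypoxia that were tested, 18 rose in proliferating, 15 in chondrocyte, 18 in osteoblast and 18 in smooth muscle cultures and none fell, with medians of 3.17, 1.19, 2.83 and 3.94. Bnip3, a mitophagy gene, changed by 4.35 ± 0.05, 1.59 ± 0.25, 4.30 ± 0.11 and 4.31 ± 0.12 (SE), and Vegfa, the angiogenic factor, by 2.26 ± 0.04, 1.11 ± 0.06, 2.88 ± 0.10 and 3.17 ± 0.12. The smaller oxygen change of the chondrocyte cultures was shared by this list: 18 of its 19 genes had a lower change than in proliferating cells and none a higher one (median difference -2.32), beside 21.9% and 21.6% of all genes. Of 16 TCA cycle genes, 13 fell and 1 rose in proliferating cells (median -0.335), among them Cs, citrate synthase (-0.63 ± 0.04), Idh3a (-1.12 ± 0.06) and Mdh2, malate dehydrogenase (-0.68 ± 0.04). In the others 1 fell and 1 rose in chondrocyte cultures, 6 fell and 1 rose in osteoblast cultures, and in smooth muscle cultures 5 fell and 8 rose, with Cs at 1.24 ± 0.07 and Mdh2 at 1.04 ± 0.07. Of 9 pentose phosphate genes 7 fell and 2 rose in proliferating cells, 2 fell and 1 rose in chondrocyte, 3 rose in osteoblast, and 6 rose and 1 fell in smooth muscle cultures. The smooth muscle changes of these lists are relative to the bulk of the genes, whose median was -0.12, and -1.49 with library size alone. Their values with library size alone are not given here.

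Of 18 glycogen genes, with Gys1 among them, 13 rose and 3 fell in proliferating cells, 6 and 2 in chondrocyte, 9 and 3 in osteoblast and 8 and 6 in smooth muscle cultures, the last near the shares of all genes. The branching enzyme Gbe1 changed by 3.12 ± 0.12, 1.01 ± 0.17, 1.75 ± 0.11 and 3.17 ± 0.11 (SE), and the row with the symbol Pgm2, the main phosphoglucomutase (named Pgm1 in RefSeq), by 3.68 ± 0.14, 1.66 ± 0.11, 2.50 ± 0.14 and 3.05 ± 0.08. The liver glycogen phosphorylase Pygl, which releases glucose from glycogen, rose in chondrocyte cultures from 3.97 to 20.4 CPM (2.37 ± 0.29) and from near 0 to 14.0 CPM in proliferating cells. Among 30 further genes of glucose and pyruvate handling, 21 to 23 were tested; 5 rose and 9 fell in proliferating, 2 and 3 in chondrocyte, 4 and 11 in osteoblast and 9 and 11 in smooth muscle cultures, near the shares of all genes in chondrocyte and smooth muscle cultures. Bsg, the chaperone that brings the lactate transporters to the cell surface, rose in all 4 (2.56 ± 0.04, 1.24 ± 0.10, 1.47 ± 0.09 and 3.27 ± 0.08). Mpc2, a subunit of the mitochondrial pyruvate carrier, fell in proliferating (-0.40 ± 0.09), chondrocyte (-0.35 ± 0.08) and osteoblast cultures (-0.67 ± 0.12). In smooth muscle cultures it rose relative to the bulk of the genes (0.94 ± 0.12).

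The authors' deposited comparison tables give log2 fold changes for the same pairs. For the 4 oxygen comparisons 133 values of members stood in both, all 133 had the same sign, and 124 were within 0.25 of the values here. Over all 10 pairwise comparisons 328 of 331 values had the same sign and 317 were within 0.25; the 3 with opposite signs were not called here.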

How the data were processed

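RNA-seq of polyadenylated RNA was deposited by the authors as a table of raw counts per gene, with tables of their own comparisons as log2 fold changes and p-values; the deposited p-values and log2 values were only set beside values computed here. The submitters' processing notes name HISAT2 2.0.5, StringTie 1.3.3b, featureCounts 1.5.0-p3 and mm10, without roles. Of 54429 rows 54330 had a symbol, and 70 columns that match no sample were not used. Libraries were grouped by their labels. Each pair of groups was fitted on its own with edgeR 4.0.16 in R 4.3.3 (TMM scaling; filterByExpr with at least 10 counts and 15 in total; quasi-likelihood F test; Benjamini-Hochberg over all genes; adjusted p below 0.05), and differences between oxygen changes on 4 groups. The SE is the log2 change divided by the square root of F. CPM uses TMM factors over 28 libraries and 16540 genes; ratios add 0.5 counts. The procedure was tested on simulated data. DESeq2 1.42.0, limma 3.58.1, other scalings and filters, and leaving out each library were alternatives. Genes given in full were 13 members fixed by name, the 2 largest rises and falls in each oxygen comparison, and those called in opposite directions. The members and lists were chosen with earlier results of these data known. Depth limits only the low genes, and counting intervals cover counting error only.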

Additional observations from a re-analysis of the deposited data

Results flagged for a closer look

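Among 52 sets of 4 normoxic libraries (the 13 genes fixed by name in 4 culture states), 9 held a library set apart from the others by Dixon's criterion, which chance gives in about 1 in 20. The 9 are not independent, since 7 of them come from 3 libraries: normoxic proliferating replicate 4 (Hk2, Aldoc and Pdk4), normoxic chondrocyte replicate 1 (Hk2 and Pfkfb3) and normoxic osteoblast replicate 4 (Ldha and Pdk4). Without these libraries the oxygen changes went from 2.34 to 2.26 (Hk2), 5.78 to 6.10 (Aldoc) and 1.09 to 1.59 (Pdk4) in proliferating cells, from 1.18 to 1.10 (Hk2) and 1.71 to 1.56 (Pfkfb3) in chondrocyte cultures, and from 3.43 to 3.74 (Ldha) and 1.17 to 1.10 (Pdk4) in osteoblast cultures; among these, the proliferating Pdk4 change was called without its library and not with it. In proliferating cells these were the lowest Hk2 level (43.6 CPM) and the highest levels of Aldoc (7.46 CPM), Pdk4 (53.5 CPM) and Slc16a3 (0.199 CPM). In chondrocyte cultures they were the lowest levels of Hk2 (60.4 CPM) and Pfkfb3 (28.1 CPM). In osteoblast cultures they were the highest Ldha level (311 CPM) and the lowest levels of Pdk1 (23.6 CPM) and Pdk4 (365 CPM).

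The oxygen change differed between culture states by edgeR's test of the difference, with a size of at least 2 in log2, for these of the 13 genes fixed by name. Between chondrocyte cultures and proliferating cells the difference was -2.59 for Pfkfb3, -3.11 for Pfkp, -4.91 for Aldoc and -5.05 for Slc16a3 (-4.31 and -7.13 without normoxic proliferating replicate 2 or 3). Between osteoblast cultures and proliferating cells it was 2.27 for Hk2 and -2.93 for Pfkp. Between smooth muscle cultures and proliferating cells it was -4.39 for Pfkp, 3.55 for Eno2, -2.12 for Pdk4 and -4.09 for Slc16a3 (-3.37 and -6.16 without normoxic proliferating replicate 2 or 3, -4.84 without hypoxic smooth muscle replicate 2). Slc16a3 was too low for the test in smooth muscle cultures alone. It passed the filter of this fit through the hypoxic proliferating libraries, where it was highest, so its value rests on them. Between osteoblast and chondrocyte cultures it was 2.03 for Slc2a1, 3.38 for Hk2, 2.93 for Pfkfb3, 3.61 for Aldoc, 2.21 for Eno2, 2.01 for Ldha and 2.35 for Slc16a3. Among the other 21 members, the difference reached that size and was called for Slc2a3 between chondrocyte and proliferating (-4.73) and between osteoblast and chondrocyte cultures (3.30), and for Pdk2 between osteoblast and proliferating cells (-2.40). Between smooth muscle and proliferating cells it did so for Gapdh (6.71), Pgk1 (4.82), Eno1 (3.61), Gpi1 (3.34), Pkm (2.64), Pfkfb2 (-2.34) and Pgam2 (-4.62, and -8.74 to -3.96 without single libraries). Pgam2 was too low for the test in proliferating cells alone. It passed the filter of this fit through the normoxic smooth muscle libraries, so its value rests on a gene barely counted in the other groups.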

How the results depend on the processing

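Over 10 kinds of alternative, 8121 of 8377 results for single members kept their direction and their side of the threshold, 124 lost the call, 104 gained one and 28 changed sign. Scaling by library size alone gave 27 of the 28. In hypoxic against normoxic smooth muscle cultures it gave Hk1 -0.59, Pfkm -0.25, Pfkp -1.21, Eno3 -0.29, Pdha1 -1.30 and Slc16a1 -0.80. In normoxic chondrocyte cultures against proliferating cells it gave Gpi1 -0.23, Pfkm -0.029, Pgk1 -0.21, Ldha -0.33 and Pdha1 -0.32, and in the hypoxic pair Pfkl -0.32, Pfkp -0.28 and Pdha1 -0.11. In hypoxic smooth muscle against hypoxic proliferating cells it gave Slc2a1 -1.28, Pfkm -0.48, Aldoc -1.06, Pkm -0.60, Pdk3 -0.52 and Pdha1 -0.60. For the difference in oxygen change between smooth muscle and proliferating cells it gave Slc2a1 -0.13, Pfkl -0.51, Pfkm -1.08, Tpi1 -0.60, Pdk3 -1.15, Pdha1 -0.89 and Slc16a1 -0.41. The other was Pdk4, whose difference between osteoblast and proliferating cells went from 0.13 to -0.39 without normoxic proliferating replicate 4 and otherwise reached 0.28 without one library. The cause was not tested.

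With a log2 size of at least 1 also required, by construction fewer genes were called: 2628, 891, 3252 and 7372 genes in the oxygen comparisons of proliferating, chondrocyte, osteoblast and smooth muscle cultures. The differentiation comparisons gave 5069 genes and 14 members (normoxic chondrocyte), 6387 genes (normoxic osteoblast), 5727 genes (normoxic smooth muscle), 4567 genes and 11 members (hypoxic chondrocyte), 4912 genes and 13 members (hypoxic osteoblast) and 5839 genes and 18 members (hypoxic smooth muscle). The differences in oxygen change gave 2153 genes (chondrocyte), 4128 genes and 14 members (osteoblast) and 2464 genes (osteoblast against chondrocyte). With a pseudocount of 5 counts the change of the log2 ratio Slc16a3/Slc16a1 was 5.94, 1.84 and 2.10 in proliferating, chondrocyte and osteoblast cultures, against 8.26, 2.14 and 3.93.

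By library size alone the members' summed level was 9202, 3591 and 3514 CPM in normoxic proliferating, osteoblast and smooth muscle cultures, and 28647, 14441 and 34023 CPM in hypoxic proliferating, chondrocyte and smooth muscle cultures. Without Gapdh and Pgk1 it was 6887, 6081, 2938 and 2533 CPM in normoxic proliferating, chondrocyte, osteoblast and smooth muscle cultures and 19121, 12533, 14022 and 29486 CPM in hypoxic ones. Leaving out each library in turn moved the genes called in the chondrocyte oxygen comparison from 3157 to between 2091 and 3359. Same-numbered libraries did not deviate together (correlations -0.162 to 0.111), so the numbers do not pair them; with the replicate block 450 of 466 member results kept their call, 5 lost it and 11 gained one. In the oxygen comparisons the block lost the calls of Ldhb (chondrocyte, -0.63, adjusted p = 0.0547) and Aldoa (smooth muscle, 1.64, adjusted p = 0.0726) and gained those of Pdk4 (1.59), Pfkfb4 (0.46) and Pfkfb2 (0.46) in proliferating, Eno3 (1.26) in chondrocyte and Gapdh (0.83) in osteoblast cultures.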
